A study of Mus musculus with 6 samples.

Results

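The 10 genes described here belong to the Notch pathway and were followed through the RNA of Nt5e knock-out and wild-type cells labelled as mouse aortic smooth muscle. They are 4 receptors (Notch1, Notch2, Notch3 and Notch4), 3 ligands (Jag1, Jag2 and Dll1) and 3 nuclear repressors of the HES and HEY families (Hes1, Hey1 and Heyl). All 10 were found by gene name among the 25683 genes of the deposited table. The study holds 3 libraries labelled Nt5e Knock-out (KO1, KO2, KO3) and 3 labelled Nt5e-WT (WT4, WT5, WT6). Nt5e encodes CD73, an ectoenzyme that makes adenosine from AMP outside the cell. Both genotypes are described as a primary smooth muscle line from mouse aorta, and both had spent 48 h at 0.5% serum before poly(A) RNA was sequenced. Library titles carry a stem that KO1 shares with KO2 and WT5 with WT6, so that each genotype has 2 stems over 3 libraries. They also carry a last number that is 1 for KO1 and WT5 and 2 for the rest. A tag between stem and last number is the same in KO1, WT4 and WT5, and another in KO2, KO3 and WT6. It thus parts KO1 from KO2 and KO3. The labels do not explain these, nor how the allele was made, whether a stem is an animal, a clone or a culture, or whether libraries are independent. The p-values below therefore measure the spread between these libraries, which may be technical.

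Notch signalling works by contact. A Jagged or Delta-like ligand on one cell engages a Notch receptor on its neighbour, the receptor is cut by ADAM proteases and then by gamma-secretase, and the freed intracellular domain joins the DNA-binding protein RBPJ and a Mastermind co-activator at target genes. HES and HEY genes are the textbook targets, and their proteins repress transcription. In the artery wall, endothelial Jag1 and smooth muscle Notch2 and Notch3 are known to take part in the maturation and contractile state of smooth muscle.

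Depth lay between 19919095 and 23669252 exon reads per library. The targeted gene, measured first as a check of the labels, had 22, 1 and 2 reads in KO1, KO2 and KO3, against 615, 688 and 486 reads in WT4, WT5 and WT6. Libraries of one genotype were unequally alike. In biological coefficient of variation, KO2 and KO3 lay 3.66% apart and WT4 and WT6 3.49%, whereas KO1 lay 44.6% from KO2 and 45.1% from KO3. KO1 thus stood about as far from its own genotype as from WT (43.7% to 48.0%), and results are given with and without it. WT5, which shares its last title number, lay 15.7% from WT6 and nearly as far from WT4. Markers went against the label in part. Des and Myocd stayed under 1 CPM (exon reads scaled to library size) in every library, and the mesothelial and epithelial list, 11 genes that include Msln, Lrrn4 and Krt19, summed to 160, 78.6 and 75.1 CPM in KO1, KO2 and KO3, against 2494, 2451 and 2574 CPM in WT4, WT5 and WT6. Of that list 8 members were tested in edgeR and all 8 were called lower, beside 13.7% of all tested genes. Krt14, with 3, 5 and 0 reads in KO, and Krt8, with 0 in each, had too few KO reads for the read filter. Both entered the test only through WT, so their fall is not read as a result, though the 8 include them. Krt8 stayed under 1 CPM in WT too. A pericyte list of 6 genes summed to 354, 984 and 1027 CPM in KO and 212, 227 and 215 CPM in WT, but that sum is mostly Pdgfrb. In the pericyte list Pdgfrb and Cspg4 rose and Rgs5 did not pass. Kcnj8 had 1, 0 and 0 reads in KO against 30, 109 and 51 in WT. Since Kcnj8 too entered the test only through WT, its fall is not read as a result. Abcc9 had 0 reads in KO against 8, 30 and 3 in WT. The smooth muscle list of 9 genes summed to 188, 700.0 and 674 CPM in KO and 158, 137 and 208 CPM in WT. Acta2 carried the sum with 73.8, 546 and 525 CPM in KO and 69.2, 51.9 and 101 CPM in WT and did not pass. Of the 6 tested Smtn rose and Cnn1 fell. Myh11, with 5, 54 and 67 reads in KO and 3, 3 and 1 in WT, was not tested. The fibroblast list of 7 genes had the highest sums, 5365, 9560 and 10356 CPM in KO and 5016, 5214 and 4982 CPM in WT. Its leading genes Dcn and Col1a2 did not pass. Of its 7 genes, all tested, Pdgfra and Pi16 rose and the others did not pass, beside 14.1% of all tested genes called higher. The part of these cell-type markers in the Notch results was not tested, and in bulk RNA fewer cells of a type and less RNA per cell cannot be told apart.

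In KO cells the Notch genes shifted towards Notch1, Jag1 and Hes1. Of the 8 members with enough reads for a test, 4 rose (Notch1, Notch3, Jag1 and Hes1), 2 fell (Dll1 and Notch4) and 2 did not pass (Notch2 and Jag2), at a Benjamini-Hochberg adjusted p under 0.05 over all genes, by the quasi-likelihood test of edgeR. Over the 12660 genes tested, 27.8% were called, 14.1% as higher and 13.7% as lower in KO. The median log2 fold change, KO over WT, was 0.54 over the 8 tested members and 0.02 over all tested genes. For all 8 tested members the 3 KO values lay to one side of the 3 WT values, 5 with KO higher and 3 with KO lower, which was the case for 49.7% of tested genes (24.3% higher and 25.5% lower). No KO library of Notch4 reached the level of the read filter. The gene thus entered the test only through WT, where it is higher though scarce, and its fall is not read as a result. The member counts given here and the median include it. Hey1 and Heyl did not reach the read filter. Leaving out KO1 brought all 8 tested members past the threshold, 5 higher and 3 lower, in a comparison that called 66.2% of tested genes (32.6% higher and 33.7% lower). Counting each nearly identical pair as 1 sample ended every call among the members in edgeR, with 4 higher and 1 lower at an unadjusted p under 0.05, in a comparison that called 0.13% of tested genes (0.023% higher and 0.107% lower).

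**Figure D1:**
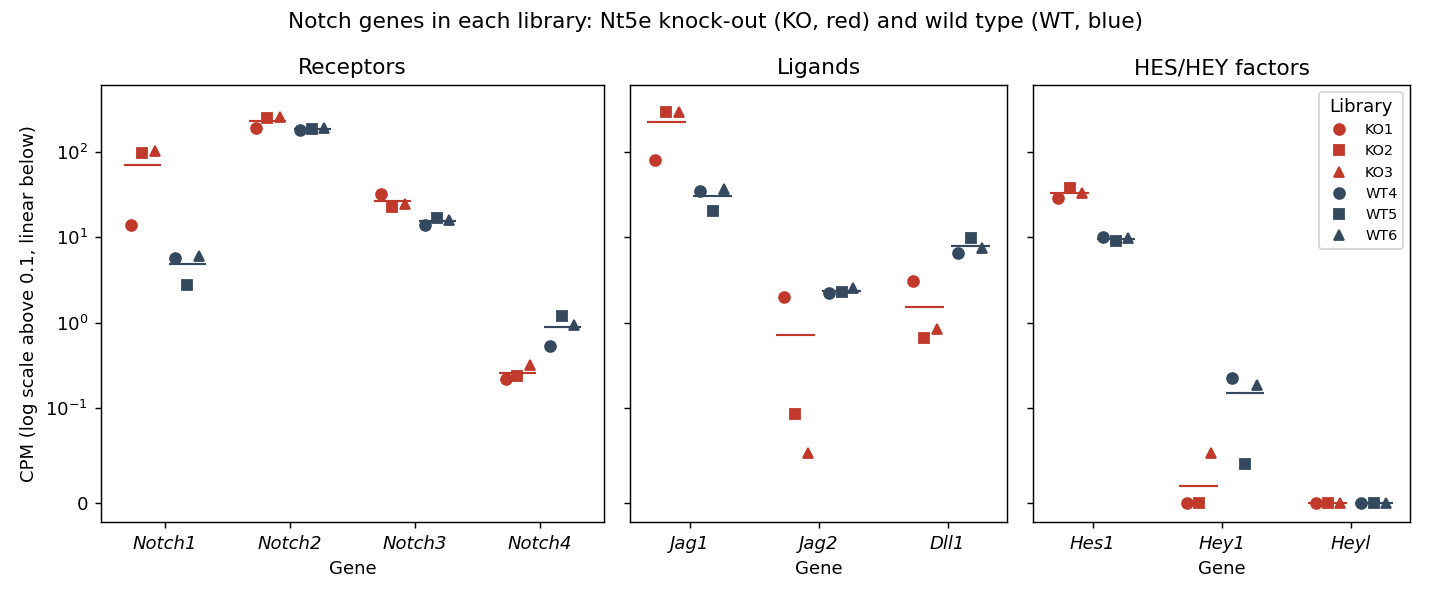
Levels of the 10 Notch genes in CPM, on an axis that is logarithmic above 0.1 and linear below, for each of the 3 KO libraries (red, left) and 3 WT libraries (blue, right); each point is a library and each bar the mean of a genotype. Notch1 and Jag1 stand highest in KO2 and KO3, Hes1 is 28.6 to 37.2 CPM in KO against 8.92 to 9.90 CPM in WT, and Heyl is at 0 throughout.

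Among the receptors, Notch1 changed the most. Notch1 (ENSMUSG00000026923, chromosome 2, 26457903 to 26516663, minus strand, GRCm38 as for all positions below), a receptor best known in endothelium and in cell fate choice, stood at 13.9, 95.2 and 102 CPM in KO1, KO2 and KO3, against 5.71, 2.75 and 5.98 CPM in WT4, WT5 and WT6. Every KO library was above every WT library, but KO1 was only 2.88-fold above the WT mean where KO2 and KO3 were 19.8-fold and 21.2-fold above it. KO1 was 5.03-fold above WT5, which shares its last title number but was the lowest WT library for Notch1. Its log2 fold change was 3.87 ± 0.82 (SE, n = 3 libraries each; edgeR adjusted p = 0.0202). Reads across exon junctions of Notch1 followed, with 124, 839 and 783 in KO and 57, 36 and 51 in WT. The call ended without KO2 or KO3 or without WT4, WT5 or WT6 (edgeR adjusted p from 0.0594 to 0.0832). It also ended in limma-voom (3.50, adjusted p = 0.102) and with the nearly identical pairs summed (3.70, edgeR adjusted p = 0.205).

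Notch2 was the most abundant receptor and differed little between genotypes. Notch2 (chromosome 3, 98013527 to 98150361, plus strand), a receptor required in mouse for smooth muscle around developing arteries, stood at 189, 244 and 250 CPM in KO and at 179, 182 and 187 CPM in WT. The groups did not overlap, though the lowest KO value, 188.8 CPM in KO1, was barely above the highest WT value, 187.2 CPM in WT6. The log2 fold change of 0.32 ± 0.12 (SE) did not pass (edgeR adjusted p = 0.103). Without KO1 it passed as a rise (0.43, edgeR adjusted p = 2.63e-04). There KO was only the nearly identical KO2 and KO3, which may be technical repeats, and 66.2% of all tested genes were called.

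Notch3 rose, and it was highest in KO1, the KO library with the least Notch1. Notch3 (chromosome 17, 32120820 to 32166852, minus strand) is the receptor typical of arterial smooth muscle, mutated in an inherited small-vessel disease in humans. Its level was 31.9, 22.5 and 24.2 CPM in KO1, KO2 and KO3, against 13.8, 16.8 and 16.0 CPM in WT4, WT5 and WT6. That is a log2 fold change of 0.76 ± 0.17 (SE; edgeR adjusted p = 0.0224), or 1.69-fold. The call ended without KO3 or WT4, WT5 or WT6 (edgeR adjusted p from 0.0564 to 0.0943) and with the nearly identical pairs summed (0.81, edgeR adjusted p = 0.186).

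Notch4 (chromosome 17, 34564268 to 34588503, plus strand), a receptor largely of endothelium, was scarce. It had 5, 5 and 6 exon reads in KO and 12, 29 and 20 in WT, so that no KO library reached the lowest WT count. Since no KO library reached the level of the read filter, its test is not given. None of its KO reads crossed an exon junction, against 1, 10 and 3 such reads in WT4, WT5 and WT6. Among 10 endothelial markers, 6 stayed under 1 CPM in every library, Tie1 and Sox17 at 0, and the list summed to 5.50, 26.2 and 21.8 CPM in KO and 3.83, 8.96 and 3.29 CPM in WT. Flt1 and Kdr, its highest genes, were the 2 tested. Flt1 stood at 2.90, 19.3 and 15.5 CPM in KO and 1.87, 5.80 and 2.08 CPM in WT and did not pass. Kdr rose, with 2.03, 6.50 and 5.91 CPM in KO and 0.803, 0.329 and 0.463 CPM in WT, beside 14.1% of all tested genes called higher.

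Set on a scale per length (CPM per kilobase of exon), the receptors together came to 23.4, 35.8 and 37.3 in KO1, KO2 and KO3, against 19.4, 19.9 and 20.6 in WT4, WT5 and WT6. Notch2 made up 76.8%, 64.9% and 63.8% of that sum in KO and 87.8%, 87.2% and 86.7% in WT. The share of Notch1 was 6.06%, 27.2% and 28.0% in KO, against 3.00%, 1.42% and 2.98% in WT. Notch2 thus remained the leading receptor in every library. The receptor in second place was Notch3 in all WT libraries and in KO1, with 16.95% of the sum there, and Notch1 in KO2 and KO3. Notch4 held under 1% in each library.

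**Figure D2:**
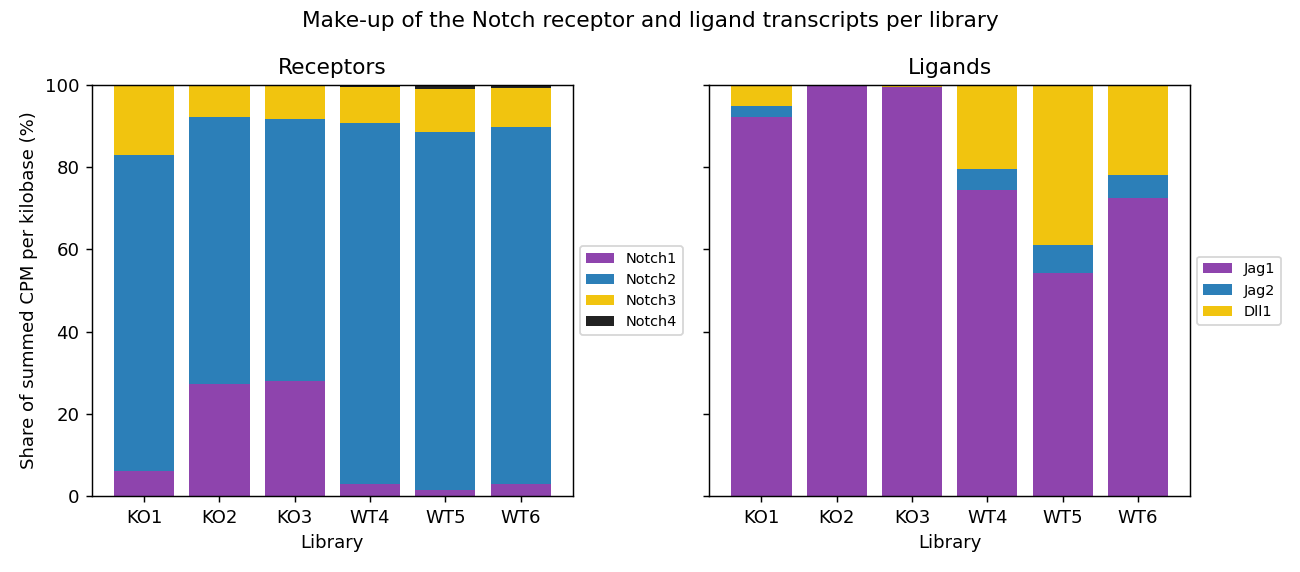
Share of each Notch receptor (left) and ligand (right) in the summed CPM per kilobase of its family, in percent, per library, KO1 to KO3 left of WT4 to WT6. Notch1 takes 27.2% and 28.0% of receptor transcripts in KO2 and KO3, and Jag1 over 92% of ligand transcripts in each KO library against 54.3% to 74.4% in WT.

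The ligands differed in direction. Jag1 (chromosome 2, 137081456 to 137116644, minus strand), the ligand tied to vascular smooth muscle differentiation, rose, while Dll1, a Delta-like ligand best known from somite and neural development, fell, and Jag2 was lower without passing. Jag1 stood at 80.6, 286 and 290 CPM in KO1, KO2 and KO3, against 35.0, 20.1 and 36.8 CPM in WT4, WT5 and WT6. KO1 was 2.64-fold above the WT mean, and KO2 and KO3 were 9.35-fold and 9.47-fold above it. KO1 was 4.02-fold above WT5, the lowest WT library for Jag1. Its log2 fold change was 2.84 ± 0.55 (SE; edgeR adjusted p = 0.0156). Intron reads of Jag1 were also more numerous, with 98, 382 and 350 in KO and 57, 31 and 55 in WT, as were junction reads, with 6571 in all over KO and 1035 over the WT libraries. The call ended without KO2 or KO3 or WT4, WT5 or WT6 (edgeR adjusted p from 0.0508 to 0.0688), and with the nearly identical pairs summed (2.72, edgeR adjusted p = 0.186).

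Dll1 (chromosome 17, 15367354 to 15376872, minus strand) stood at 3.07, 0.660 and 0.851 CPM in KO and at 6.46, 9.70 and 7.46 CPM in WT. Its groups did not overlap, and KO1 lay between KO2 and KO3 and WT. The gene fell by 2.35 ± 0.62 on the log2 scale (SE; edgeR adjusted p = 0.0382), and by 3.39 without KO1. The call ended without KO2 or KO3 or WT4, WT5 or WT6 (edgeR adjusted p from 0.0906 to 0.116) and with the nearly identical pairs summed (-2.14, edgeR adjusted p = 0.250).

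Jag2 (chromosome 12, 112907819 to 112929776, minus strand), the second Jagged ligand, parted KO libraries from each other. It had 46, 2 and 1 exon reads in KO1, KO2 and KO3, against 50, 55 and 55 in WT4, WT5 and WT6. KO1 was thus close to WT (1.99 CPM against 2.23 to 2.55 CPM), whereas KO2 and KO3 held almost no Jag2. With all 6 libraries the log2 fold change of -1.68 ± 1.15 (SE) did not pass (edgeR adjusted p = 0.309). Without KO1 it was -4.87 (edgeR adjusted p = 9.94e-05). That comparison rests on KO2 and KO3, which are nearly identical and may be technical repeats, and it called 66.2% of all tested genes.

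Per length, the 3 ligands summed to 15.6, 51.2 and 51.9 CPM per kilobase in KO, against 8.37, 6.58 and 9.02 in WT. Jag1 gave 92.3%, 99.6% and 99.5% of that sum in KO and 74.4%, 54.3% and 72.6% in WT. Dll1 gave 5.22%, 0.341% and 0.434% in KO and 20.4%, 39.0% and 21.8% in WT. WT5 had the lowest Jag1 and Notch1 and the highest Dll1 and Notch4 of the 3 WT libraries.

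Hes1 gave the clearest difference of the 10 genes. Hes1 (ENSMUSG00000022528, chromosome 16, 30064384 to 30067796, plus strand), a repressor of the HES family induced by Notch and by several other signals, stood at 28.6, 37.2 and 33.0 CPM in KO1, KO2 and KO3, against 9.90, 8.92 and 9.87 CPM in WT4, WT5 and WT6. Here KO libraries were close together, 2.99-fold, 3.89-fold and 3.46-fold above the WT mean. The log2 fold change was 1.78 ± 0.13 (SE, n = 3 libraries each; edgeR adjusted p = 9.69e-04), or 3.44-fold. Hes1 was the single member whose call held when any one library was left out (edgeR adjusted p up to 0.0133), and it was lost only with the nearly identical pairs summed (1.77, edgeR adjusted p = 0.0779).

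The HEY factors, by contrast, were nearly silent. Hey1 (chromosome 3, 8663359 to 8667256, minus strand) had 0, 0 and 1 exon reads in KO and 5, 1 and 4 in WT. Those 1 and 10 reads make a ratio, WT over KO, of 9.24 with an exact 95% counting interval of 1.31 to 401, which covers counting error only. Heyl (chromosome 4, 123233556 to 123249875, plus strand), a HEY gene reported downstream of Notch3 in vascular smooth muscle, had 0 reads in all 6 libraries. A count of 0 allows up to 0.130, 0.141 and 0.160 CPM in KO1, KO2 and KO3 and up to 0.134, 0.123 and 0.139 CPM in WT4, WT5 and WT6.

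On the scale per length, the order of the members differed between genotypes. In KO the levels were 39.0 ± 21.3 CPM per kilobase for Jag1, 22.4 ± 2.92 for Hes1, 21.7 ± 3.21 for Notch2, 7.20 ± 5.02 for Notch1, 3.25 ± 0.627 for Notch3, 0.404 ± 0.355 for Dll1, 0.140 ± 0.217 for Jag2 and 0.0381 ± 0.00811 for Notch4 (mean ± SD, n = 3). Over libraries, neighbours overlap along most of this order: the first 3 with each other, Notch1 with Notch3, Dll1 with Jag2, and Jag2 with Notch4. Within each KO library, however, Dll1 was above Jag2. Notch1 was below Notch3 in KO1 and above it in KO2 and KO3. In WT the levels were 17.4 ± 0.384 for Notch2, 6.51 ± 0.378 for Hes1, 5.45 ± 1.63 for Jag1, 2.08 ± 0.438 for Dll1, 1.93 ± 0.193 for Notch3, 0.493 ± 0.183 for Notch1, 0.459 ± 0.0344 for Jag2 and 0.131 ± 0.0490 for Notch4. Hes1 with Jag1, Dll1 with Notch3, and Notch1 with Jag2 are neighbours that do not differ there beyond their spread over libraries. Within each WT library Hes1 was above Jag1. Among all tested genes, Jag1 stood on average at percentile 82.5 in KO and 37.7 in WT, and Notch1 at percentile 42.8 in KO and 8.20 in WT.

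The start regions of Notch1, Jag1 and Notch3 are shown because these 2 receptors and this ligand rose, and that of Hes5, a HES gene with well known RBPJ sites, for comparison. Sequences come from RefSeq (GRCm38.p6), 5′ to 3′ on the strand of the gene, limited to bases outside annotated exons of the same strand. The Notch1 start given by RefSeq lies inside the longer span of that gene in the deposited table. Bases in capitals in Jag1 and Notch3 match CACGNG, a site of the kind bound by HES and HEY repressors, and in Hes5 they match TGGGAA, the RBPJ core, on either strand.
Notch1, chr2:26503825-26504072, minus strand: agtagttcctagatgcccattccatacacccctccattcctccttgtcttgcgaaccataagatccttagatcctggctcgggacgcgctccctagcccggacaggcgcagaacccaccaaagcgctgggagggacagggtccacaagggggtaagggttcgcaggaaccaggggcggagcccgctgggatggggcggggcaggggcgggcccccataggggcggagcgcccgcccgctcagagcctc
Jag1, chr2:137116645-137116770, minus strand: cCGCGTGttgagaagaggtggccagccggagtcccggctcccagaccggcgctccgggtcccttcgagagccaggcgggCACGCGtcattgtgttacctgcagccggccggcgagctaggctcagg
Notch3, chr17:32166891-32167140, minus strand: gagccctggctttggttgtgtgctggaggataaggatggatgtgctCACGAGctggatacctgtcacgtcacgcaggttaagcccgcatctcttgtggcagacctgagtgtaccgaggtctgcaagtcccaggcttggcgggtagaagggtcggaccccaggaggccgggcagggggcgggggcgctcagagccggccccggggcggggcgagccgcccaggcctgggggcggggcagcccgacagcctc
Hes5, chr4:154960673-154960922, plus strand: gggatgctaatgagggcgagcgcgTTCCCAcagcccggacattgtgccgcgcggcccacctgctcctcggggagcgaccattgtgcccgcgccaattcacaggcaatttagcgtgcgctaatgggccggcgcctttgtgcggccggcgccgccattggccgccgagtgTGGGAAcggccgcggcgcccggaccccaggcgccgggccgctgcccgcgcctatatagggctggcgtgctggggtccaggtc

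Of the 10 members, 7 had an entry in the RefSeq table, with 8 start regions in all. Hes1, Hey1 and Heyl had none and were not searched, so the counts below cover receptors and ligands only. TGGGAA on either strand occurred in 0 of those 8 within 250 bases before the start, against 21.6% of 32851 start regions in the table, and the longer GTGGGAA in 0 of 8, against 5.42%. CACGNG on either strand occurred in 5 of the 8, belonging to Dll1, Jag1, Notch2 and Notch3, against 23.5% of all. CACNAG, a second kind of HES site, which the capitals in Notch3 also match and which is not marked elsewhere, occurred on either strand in 3 of the 8, belonging to Notch1, Notch2 and Notch3, against 36.7% of all. The matches shown begin 249 and 171 bases before the RefSeq start of Jag1 and 204 bases before that of Notch3. In Hes5 the RBPJ core begins 226 and 82 bases before the start, and the gene itself had 0 reads in KO and 1 read in WT. A match says only that these letters are present in the window. The share over all start regions was not matched for base composition. The regions shown for Notch1, Jag1 and Notch3 hold 66.1%, 70.6% and 68.8% G or C, and that of Jag1 is 126 bases long. Whether the members have more such sites than like regions was not tested.

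Beyond the 10 genes, 90 further genes of the pathway were followed in 8 lists. Of the 79 that were tested, 19 rose and 6 fell, or 31.6%, against 27.8% of all tested genes, and their median log2 fold change was 0.15 against 0.02. Of the 19 and the 6, 1 each (Hey2 and Nrarp) entered the test through 1 genotype only. Without KO1, 44 rose and 19 fell of 81 tested, beside 32.6% and 33.7% of all tested genes, and with the nearly identical pairs summed, where 0.13% of all tested genes were called, none passed in edgeR, with 14 higher and 6 lower at an unadjusted p under 0.05. The lists follow by role, and values in parentheses are log2 fold changes with their SE, then edgeR's adjusted p. The counts of each list stand beside 14.1% higher and 13.7% lower over all tested genes, and no list was tested as a set.

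**Figure D3:**
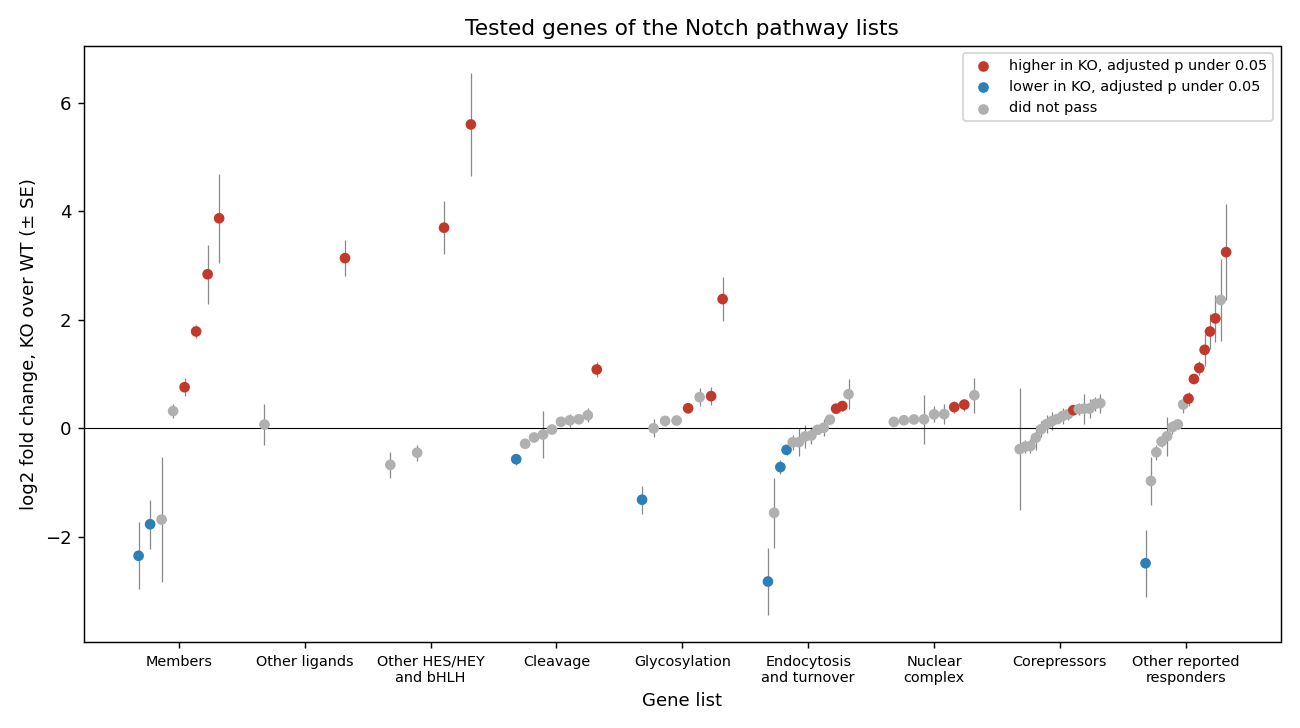
Log2 fold change, KO over WT (± SE), of each tested gene of the Notch lists, one column per list, with genes that passed an edgeR adjusted p under 0.05 in red (higher) or blue (lower) and others in grey. Hey2, which entered the test through KO only, is the highest point and Nrarp, which entered through WT only, the lowest.

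Of 5 other ligands and ligand-like proteins, 2 were tested and 1 rose. Dlk1, a membrane protein related to Delta that lacks the usual receptor-binding domain, stood at 32.2, 14.6 and 18.1 CPM in KO, against 2.32, 2.55 and 2.50 CPM in WT (3.14 ± 0.33, edgeR adjusted p = 0.00302). Dll4, the endothelial Delta-like ligand, and Dner, a Delta-related neuronal protein, were outside the naming rule and are given because of their reads. Dll4 had 1 read over KO and 14 over the WT libraries. Dner had 0, 18 and 12 reads in KO1, KO2 and KO3 and 0 in WT. KO1 was thus at 0 as WT was, and every read of Dner came from KO2 and KO3, which may be technical repeats.

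Of 9 other HES, HEY and related factors, 4 were tested, 2 rose and none fell in edgeR or limma-voom, though 2 were lower at an unadjusted p under 0.05 and DESeq2 called 2 lower. Bhlhe41, a circadian repressor related to HES proteins, stood at 12.6, 36.8 and 36.8 CPM in KO, against 2.85, 2.06 and 1.71 CPM in WT (3.70 ± 0.49, edgeR adjusted p = 0.00557). Hey2, the HEY factor of arterial endothelium and heart, had 37, 16 and 11 reads in KO and 0, 0 and 1 in WT. The read sums of Hey2, 64 and 1, make a ratio, KO over WT, of 69.3 with an exact 95% counting interval of 12 to 2779. No WT library of Hey2 reached the level of the read filter, so it entered the test only through KO, and its test is not given. The most abundant of the list, Bhlhe40, did not pass (-0.68 ± 0.24, edgeR adjusted p = 0.0863).

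The machinery that cuts the receptors had 1 rise and 1 fall among 10 tested genes and a median log2 fold change of 0.05. Psen2, a catalytic subunit of gamma-secretase, stood at 87.1 ± 4.15 CPM in KO and 41.1 ± 6.69 CPM in WT (1.08 ± 0.13, edgeR adjusted p = 0.00450). Adam17, a sheddase, stood at 69.6 ± 7.66 CPM in KO and 103 ± 5.99 CPM in WT (-0.57 ± 0.10, edgeR adjusted p = 0.0132). Ncstn, the most abundant per length, did not pass (0.16 ± 0.07, edgeR adjusted p = 0.148). The call of Adam17 ended without WT4, WT5 or WT6 (edgeR adjusted p up to 0.0583).

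Of 8 tested enzymes that add sugars to the receptors, 3 rose and 1 fell. Gxylt2, a xylosyltransferase that extends O-glucose, stood at 23.2, 57.7 and 60.0 CPM in KO, against 10.1, 6.99 and 9.91 CPM in WT (2.38 ± 0.40, edgeR adjusted p = 0.0104). Xxylt1, which adds the next xylose, rose (0.59 ± 0.16, edgeR adjusted p = 0.0422), as did Eogt (0.37 ± 0.09, edgeR adjusted p = 0.0298). Lfng, a Fringe enzyme that alters which ligands a Notch receptor answers to, fell to 2.42 ± 0.432 CPM in KO, against 6.05 ± 1.30 CPM in WT (-1.32 ± 0.25, edgeR adjusted p = 0.0155). Poglut1, the most abundant per length, did not pass (0.14 ± 0.07, edgeR adjusted p = 0.165). The calls ended without WT4 in all 4 genes, without WT6 in Xxylt1, Eogt and Lfng, without WT5 in Xxylt1 and Eogt, without KO2 in Xxylt1 and Eogt, and without KO3 in Xxylt1 and Lfng (edgeR adjusted p up to 0.140). The call of Eogt also ended with total exon reads as library size and with stems summed.

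Among 14 tested genes of ligand endocytosis and receptor turnover, 2 rose and 3 fell. Nrarp, a feedback inhibitor induced by Notch in several tissues, had 6, 1 and 2 reads in KO and 31, 18 and 21 in WT, and it entered the test only through WT, so its test is not given. The Deltex genes Dtx3 (-0.72 ± 0.12, edgeR adjusted p = 0.0111) and Dtx2 (-0.40 ± 0.09, edgeR adjusted p = 0.0212) fell. Nedd4, a ubiquitin ligase and the most abundant of the list per length (0.41 ± 0.09, edgeR adjusted p = 0.0207), and Wwp2 (0.36 ± 0.08, edgeR adjusted p = 0.0211) rose. Calls of Dtx2 and Nedd4 ended without any one of KO2 and KO3 and WT4, WT5 and WT6, that of Nedd4 also with libraries of one title stem summed, those of Wwp2 without KO2 or KO3 or WT4 or WT6 or with total exon reads as library size, and that of Dtx3 without WT4 or WT6 (edgeR adjusted p up to 0.1003).

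The nuclear complex had 2 rises and no fall among 9 tested genes in edgeR, with 0 lower at an unadjusted p under 0.05 and 0 called lower by DESeq2 or limma-voom. Ep300, an acetyltransferase co-activator (0.44 ± 0.11, edgeR adjusted p = 0.0346), and Maml2, a Mastermind co-activator (0.39 ± 0.11, edgeR adjusted p = 0.0471), rose, and Snw1, the most abundant per length, did not pass (0.16 ± 0.07, edgeR adjusted p = 0.131). Rbpj itself, named after its values were seen, parted KO libraries: it stood at 609, 203 and 203 CPM in KO1, KO2 and KO3, against 300.2, 299 and 307 CPM in WT4, WT5 and WT6. KO1 was above and KO2 and KO3 below WT, and the log2 fold change of 0.16 ± 0.45 did not pass (edgeR adjusted p = 0.808). Of 16 tested RBPJ corepressors, 1 rose and none fell in edgeR, DESeq2 or limma-voom, with 2 lower at an unadjusted p under 0.05 in each. Tle5, a short Groucho-family protein, stood at 410 ± 32.2 CPM in KO and 326 ± 3.68 CPM in WT (0.33 ± 0.08, edgeR adjusted p = 0.0335). The calls of Ep300, Maml2 and Tle5 ended without any one of KO2 and KO3 and WT4, WT5 and WT6 (edgeR adjusted p up to 0.148), those of Tle5 and Maml2 also with total exon reads as library size, that of Tle5 with stems summed, and that of Maml2 under another filter, no filter or DESeq2 size factors.

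Of 17 other genes reported to respond to Notch in some cell type, 16 were tested, 7 rose and 1 fell. Cdkn1a, the p21 cell cycle inhibitor, stood at 212 ± 12.6 CPM in KO and 113 ± 3.17 CPM in WT (0.91 ± 0.07, edgeR adjusted p = 0.00144). Id3, an inhibitor of bHLH factors (1.11 ± 0.13, edgeR adjusted p = 0.00400), and Sox9, a cartilage regulator (1.78 ± 0.32, edgeR adjusted p = 0.0127), rose, and Il33, an alarmin, fell (-2.49 ± 0.62, edgeR adjusted p = 0.0325). Pdgfrb, the mural-cell receptor reported downstream of Notch3, named after its values were seen, stood at 311, 951 and 995 CPM in KO, against 180, 192 and 182 CPM in WT (2.02 ± 0.44, edgeR adjusted p = 0.0215). Vcam1, the most abundant per length, did not pass (0.02 ± 0.12, edgeR adjusted p = 0.909). Several of these genes answer to other pathways too, and the list does not measure Notch activity by itself. The calls of Pdgfrb and Il33 ended without any one of KO2 and KO3 and WT4, WT5 and WT6, and that of Sox9 without WT4, WT5 or WT6 (edgeR adjusted p up to 0.107).

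Genes whose profile over the 6 libraries was most like that of the leading receptor, ligand and target were found by the root mean square difference of centred log2 CPM, over 11367 genes. For Notch2 they were Prpf39, a splicing factor (0.0138), and Mllt1, an elongation factor (0.0215). For Jag1 they were B3galt1, a galactosyltransferase (0.114), Camsap3, a microtubule-binding protein (0.135), and Gask1b (0.196). Of the members, Notch1 came at rank 59 for Jag1, Hes1 at 160, Notch3 at 1908, Notch2 at 2280 and Dll1 at 11004. For Hes1 they were Arhgef40 (0.0749), Prex2, a Rac exchange factor (0.0756), and P2rx7, an ATP-gated channel (0.0766). Of the members, Notch3 came at rank 864 for Hes1, Jag1 at 2122, Notch2 at 2325, Notch1 at 9599 and Dll1 at 10970. B3galt1 stood at 8.57, 28.8 and 28.3 CPM in KO and at 3.52, 1.93 and 4.49 CPM in WT, the pattern of Jag1 at a lower level.

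**Figure D4:**
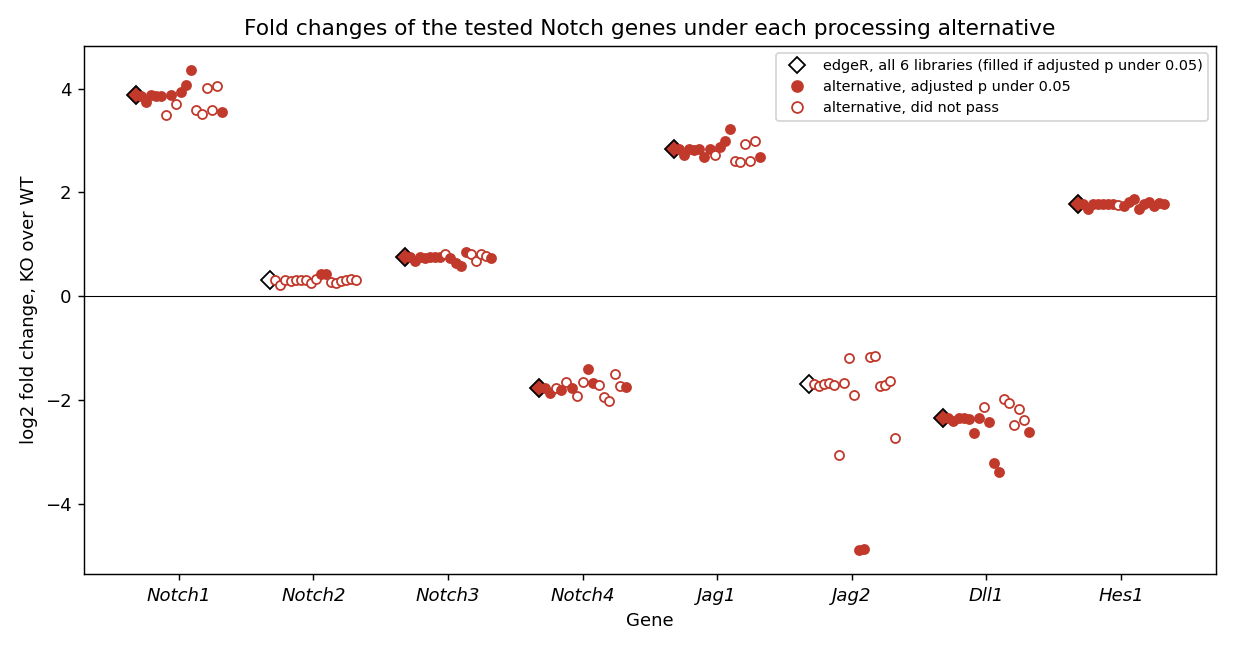
Log2 fold change, KO over WT, of the 8 tested Notch genes in edgeR with all 6 libraries (diamond) and under each alternative (circles), filled where the adjusted p was under 0.05. No gene changes direction, but KO and WT values of each do not overlap, so leaving out or summing libraries could hardly change it. Hes1 lies between 1.68 and 1.87, and Jag2 between -4.90 and -1.16.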

How the data were processed

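The authors deposited read counts (whole numbers) per gene and library, named in the file headers as total exon, unique exon, exon-exon junction and intron reads. Exon length and position per gene, another kind of value, were deposited by the authors too. The submitters' processing notes name GRCm38 (mm10) as build, and all 10 members had the same coordinates in GENCODE M21. How strand was used in counting, and with which tools, is not given in the sources used here. GENCODE places opposite-strand genes over Notch1, Notch3, Notch4 and Dll1, so reads of such partners cannot be told apart from theirs. Every exon read of the members with reads was unique.

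Total exon reads entered edgeR 4.0.16 in R 4.3.3. Genes were filtered by filterByExpr (minimum count 10), scaled by TMM and compared by genotype alone in the quasi-likelihood test. P-values were adjusted by Benjamini-Hochberg over all tested genes, with a threshold of 0.05. The SE was obtained as the absolute log2 fold change over root F. CPM were counts scaled to the TMM-adjusted depth, and their log2 had a prior count of 2. Intervals and the limit of 3 reads at a count of 0 cover counting error only. Alternatives were 17: other scalings, filters, DESeq2 1.42.0, limma-voom 3.58.1, unique exon reads, summed or selected libraries, leaving out each library and, added after seeing the data, the last title number as a block. edgeR was tested on simulated data. The members, lists and motifs were chosen with earlier results of these data known. The genes named are all members, up to 3 called rises and 3 called falls per list by p, and its most abundant gene per length. Tle5 was matched by gene ID from its older symbol Aes. Figures were drawn with matplotlib 3.10.9. One gene that the likeness rule names is not reported here.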

Additional observations from a re-analysis of the deposited data

How the results depend on the processing

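None of the 33 members and called pathway genes that were followed changed direction under any of the 17 alternatives. In all of them every KO value lay to one side of every WT value. Leaving out or summing libraries could therefore hardly change a direction, and the count is no test of it. The count of genes that differ, 3524 (1788 higher and 1736 lower in the knock-out), was 9286 (4580 and 4706) in the 4 libraries with a last title number of 2 and 17 (3 and 14) with the nearly identical libraries summed, and ranged from 1120 to 8486 (513 to 4172 and 607 to 4314) when 1 library was left out. With total exon reads as library size 40.1% of called genes were higher in the knock-out, against 50.7% with TMM.

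The 4 members called higher became 0 with the nearly identical libraries summed (edgeR), where 4 were higher and 1 lower at an unadjusted p under 0.05, and ranged from 1 to 5 when 1 library was left out. The 2 called lower became 1 without a filter, with at least 50 reads in 3 libraries, in limma-voom and with libraries of one title stem summed, became 0 with the nearly identical libraries summed, and ranged from 0 to 3 when 1 library was left out (edgeR, where 2 were lower at an unadjusted p under 0.05 in each comparison that gave 0). Of the wider pathway genes, the 19 higher became 49 in the 4 libraries and 0 with the nearly identical libraries summed (14 at an unadjusted p under 0.05) and ranged from 5 to 44 when 1 library was left out. The 6 lower became 10 in DESeq2, 10 with total exon reads as library size, 20 in the 4 libraries and 0 with the nearly identical libraries summed (6 at an unadjusted p under 0.05), and ranged from 0 to 19 when 1 library was left out (8 at an unadjusted p under 0.05 where the count was 0). Of 25 called pathway genes, 5 passed without each library in turn. Except where fewer samples or genes entered by construction, the cause was not tested. The labels number the libraries 1 to 6, but the last title number is shared across genotypes. Over genes, the deviations of KO1 and WT5, which share the number 1, correlated at -0.02, so the number is not taken as a pairing. As a replicate block, chosen after seeing the data, it gave 4510 genes, 4 members higher and 2 lower, and 23 pathway genes higher and 10 lower. Read numbers limit Hey1, Heyl and Notch4. Of the 2 members called lower, Notch4 entered the test only through WT.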
